A study of Rattus norvegicus with 3 samples.

Results

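Collagen genes were described in cells of the injured rat spinal cord, across fibroblast-like, mural-like, Schwann-like, endothelial-like and other cells. Members were all genes whose symbol is Col, a type number, the letter a and a chain number. This rule found 42 of the 25199 features, and 27 of the 42 had at least 20 UMIs (unique molecular identifiers, 1 for each captured RNA molecule) over all barcodes. The rule used symbols and that minimum, and no comparison between groups. Just inside the minimum lay Col4a3 with 33 UMIs and Col28a1 with 35. Just outside it lay Col26a1 with 15 UMIs and Col17a1 and Col4a6 with 14 each. Col1a2, Col6a3 and Col21a1 were not analysed here.

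The animals were wild type rats aged 6 to 8 weeks with a spinal cord injury, and all 3 groups received an injection at the injury site, of PBS (phosphate-buffered saline), G-HD or MPG-HD. Per the title of the series the study is about a self-assembling hydrogel for cord repair, and the labels do not spell out the last 2 names or the time after injury. Each condition used 5 animals and gave 1 library, and how the animals were pooled is not given. A 5 mm piece of cord was digested with collagenase (1 mg/ml, 30 min) and trypsin (0.25%, 5 min), passed through a 30 µm strainer, freed of red cells and profiled with a 10x Genomics 3′ kit. The enzymes and the strainer decide which cells of a fibrous scar enter the suspension, and this recovery was not measured. With 1 library a group there is no test of any difference between groups. Every interval below is an exact 95% interval for counting error only, and animals and preparations cannot be told apart from treatments. Triplets of values stand in the order PBS, G-HD and MPG-HD.

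Collagens are trimeric proteins built from chains with a long repeat that winds into a triple helix. Fibril-forming types give tissue its tensile strength, fibril-associated types sit on their surface, type IV chains form the sheet of the basement membrane, and types XV and XVIII, the multiplexins, lie at the border of that sheet. In the injured cord, fibroblasts of the meninges and of vessel walls lay down much of the fibrous scar, while mural, endothelial and Schwann cells build basement membranes.

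The libraries held 1513, 2619 and 2339 barcodes with 16081082, 26289759 and 23988263 UMIs, and 1374, 2342 and 2087 cells were kept. Kept cells had medians of 10294, 9248 and 10425 UMIs. Between 4 and 7 barcodes were shared by any pair of libraries. The doublet caller marked 12 of 5815 cells (0.206%), under the 0.5% at which it is taken not to have worked, so doublets may remain in each class. Of 24 clusters, 6 stayed unnamed, with 14.7%, 15.1% and 15.6% of the cells. No astrocyte-like cluster was found. The fibroblast-like class had 136, 236 and 168 cells, and all 10 of its markers were found in each library, at 9443, 9257 and 7884 CPM summed (CPM, the share of all UMIs of the summed cells, per 1000000). Mural-like cells numbered 13, 24 and 19, too few in PBS and MPG-HD for a ratio. Collagen genes were left out of the clustering and of the marker sets.

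Most collagen RNA lay in a small share of the cells. Fibroblast-like cells were 9.90%, 10.1% and 8.05% of the kept cells and held 91.2%, 86.4% and 88.7% of each library's collagen UMIs. All 42 collagen genes together made up 1.68% (1.66 to 1.70), 1.49% (1.48 to 1.51) and 1.68% (1.67 to 1.70) of the UMIs of these cells. The PBS and MPG-HD intervals overlap, and G-HD lies below both. The median fibroblast-like cell had 1.21%, 1.24% and 1.11%, so the order of the medians is not that of the sums.

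**Figure D1:**
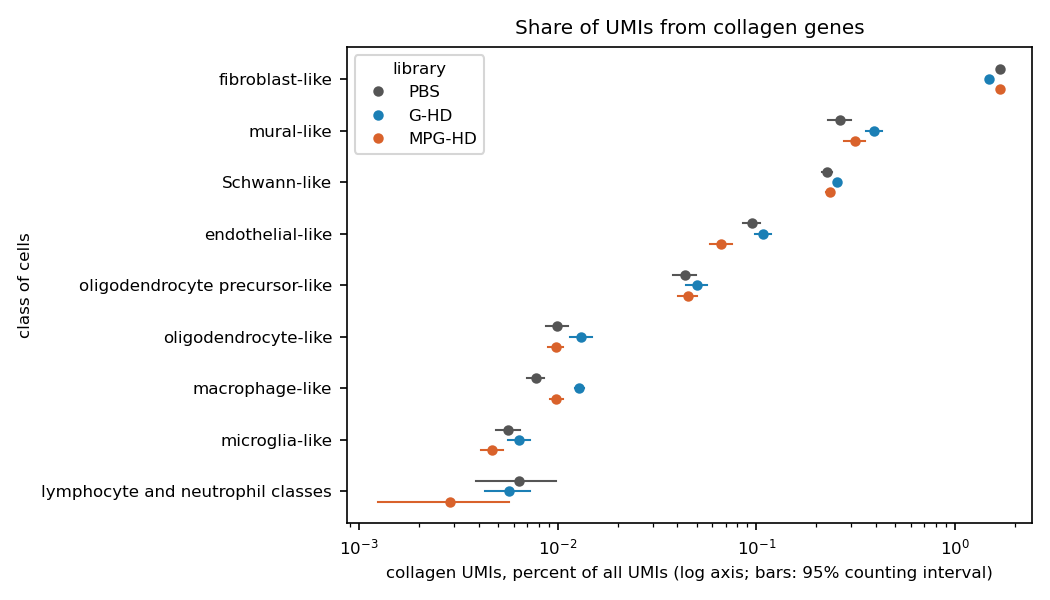
Collagen UMIs as a percentage of all UMIs of a cell class on a log axis, with 1 point per library and 95% counting intervals. Fibroblast-like cells lie at 1.49% to 1.68%, mural-like and Schwann-like cells at 0.226% to 0.391%, and lymphocytes and neutrophils below 0.01%.

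Mural-like cells, which wrap blood vessels, had collagen shares of 0.262%, 0.391% and 0.314%. Schwann-like cells, the myelinating and supporting glia of peripheral nerve, had 0.226%, 0.255% and 0.234%. Endothelial-like cells had 0.0948%, 0.108% and 0.0663%, and oligodendrocyte precursor-like cells 0.0435%, 0.0499% and 0.0452%. These 4 classes kept their order in all 3 libraries. Oligodendrocyte-like, macrophage-like and microglia-like cells lay between 0.00466% and 0.0131%. Lymphocyte-like and neutrophil-like cells, which are not known as collagen producers, had 0.00638%, 0.00565% and 0.00288% and serve below as the background level.

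Of the 27 genes, 14 had their highest level in fibroblast-like cells, and for 13 of these that held in each library. Another 4 were highest in Schwann-like cells (Col5a3, Col16a1, Col20a1 and Col28a1) and 4 in mural-like cells (Col4a1, Col18a1, Col4a4 and Col4a2). Oligodendrocyte precursor-like cells had the highest mean levels of Col11a1, Col11a2 and Col9a3, oligodendrocyte-like cells of Col9a2 and microglia-like cells of Col4a3. For 3 of these genes the highest class differed between libraries. Col11a1 was highest in fibroblast-like cells in PBS and MPG-HD, and Col9a2 in the precursors in MPG-HD. Col9a3 was highest in Schwann-like cells in G-HD and in oligodendrocyte-like cells in MPG-HD. More than 90% of the kept UMIs of 8 genes lay in fibroblast-like cells, and more than 50% for 13 genes. UMIs of a 3′ kit do not grow with transcript length, but they depend on how well a gene's 3′ end is annotated, so levels of different genes are set side by side with that limit.

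**Figure D2:**
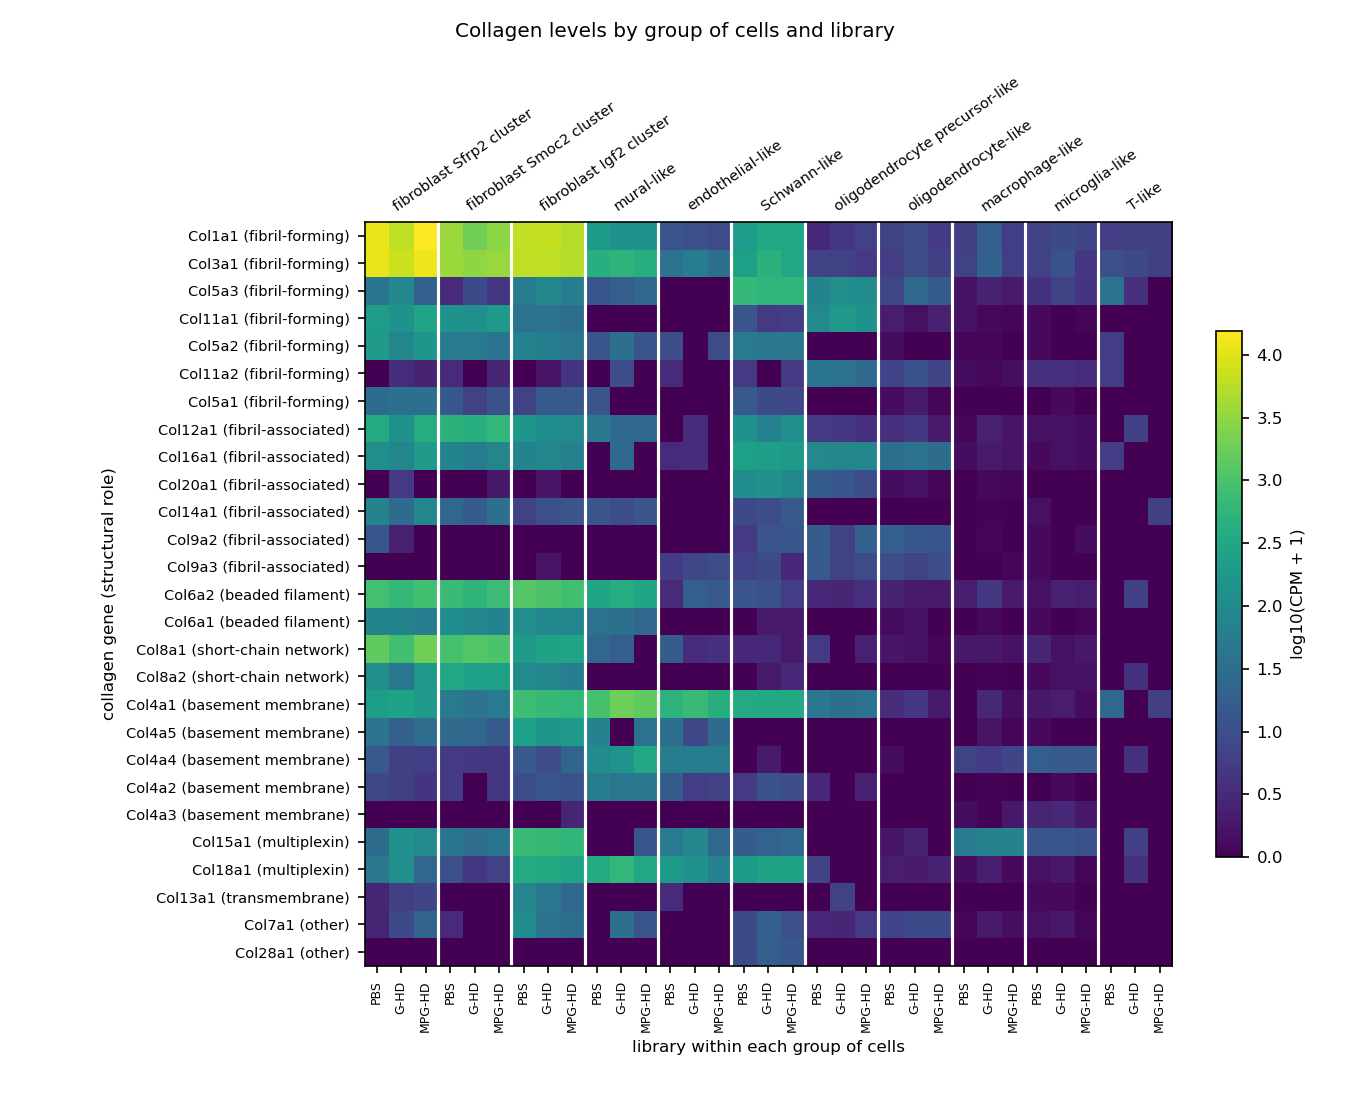
Level of the 27 collagen genes, as log10(CPM + 1), in 11 cell groups and 3 libraries, with genes ordered by role. Col1a1 and Col3a1 are high across the fibroblast-like clusters, Col4a1 is shared by fibroblast-like, mural-like, endothelial-like and Schwann-like cells, and Col5a3 stands out in Schwann-like cells.

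Fibril-forming chains supplied most of the family's UMIs. Col1a1 (ENSRNOG00000003897), the main chain of type I collagen, had 46891 UMIs over all barcodes, and Col3a1 (ENSRNOG00000003357), the chain of type III collagen in loose tissue and early scars, had 46147. In fibroblast-like cells Col1a1 stood at 6685, 5615 and 6966 CPM, and Col3a1 at 6592, 5951 and 6332 CPM. Both genes were thus lowest in G-HD. Of the kept UMIs, 96.9% of Col1a1 and 96.1% of Col3a1 lay in fibroblast-like cells.

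The remaining fibril-forming chains were far less abundant and had different homes. Col5a2, a chain of the type V collagen that starts type I fibrils, stood at 96.8, 67.0 and 71.9 CPM in fibroblast-like cells, and Col5a1 at 16.5, 17.8 and 16.9 CPM. Col5a3, the third type V chain, was a Schwann gene: it stood at 608, 551 and 559 CPM in Schwann-like cells against 23.4, 70.6 and 21.2 CPM in fibroblast-like cells. Only 12.4% of its kept UMIs lay in fibroblast-like cells. It had 78.4, 119 and 103 CPM in oligodendrocyte precursor-like cells and 0 UMIs in endothelial-like cells of all 3 libraries, where 3 UMIs would be 6.66, 7.21 and 8.43 CPM.

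Type XI chains, relatives of type V known best from cartilage, were found in precursors and fibroblasts. Col11a1 stood at 99.0, 183 and 139 CPM in oligodendrocyte precursor-like cells and at 143, 84.5 and 169 CPM in fibroblast-like cells. The order of those 2 classes was not the same in the 3 libraries. Col11a2 stood at 41.2, 36.6 and 25.7 CPM in the precursors and at 5.94, 10.4 and 6.48 CPM in oligodendrocyte-like cells.

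Among the fibril-associated chains, Col12a1, a type that binds type I fibrils and is common in tendon, stood at 394, 176 and 417 CPM in fibroblast-like cells. Its G-HD level was less than those of PBS and MPG-HD, whose values lay close together. Col12a1 was also found in Schwann-like cells, at 128, 68.5 and 118 CPM, with G-HD again lowest. Col14a1, a related chain, stood at 36.2, 16.0 and 41.1 CPM in fibroblast-like cells, in the same order. Col16a1 was shared by Schwann-like cells (242, 218 and 185 CPM), fibroblast-like cells (89.3, 80.1 and 102 CPM), the precursors (94.9, 80.5 and 86.6 CPM) and oligodendrocyte-like cells (32.1, 37.5 and 29.8 CPM). Col20a1 lay at 110, 130 and 88.7 CPM in Schwann-like cells and at 16.5, 12.8 and 8.12 CPM in the precursors, with 1.51% of its kept UMIs in fibroblast-like cells.

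Type IX chains, partners of cartilage fibrils, were low and glial. Col9a2 stood at 17.0, 13.5 and 12.6 CPM in oligodendrocyte-like cells and 16.5, 5.49 and 18.9 CPM in their precursors. Col9a3 stood at 8.71, 6.25 and 8.92 CPM and 14.4, 5.49 and 8.12 CPM in the same classes. Fibroblast-like cells held 4.04% of the kept Col9a2 UMIs and 0.813% of those of Col9a3.

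The beaded filament chains of type VI, which link cells to the interstitial matrix, were fibroblast genes. Col6a2 stood at 853, 832 and 791 CPM and Col6a1 at 99.4, 84.1 and 74.1 CPM in fibroblast-like cells, which held 95.8% and 96.7% of their kept UMIs. Mural-like cells had 282, 399 and 295 CPM of Col6a2.

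The short-chain network collagen of type VIII forms hexagonal sheets and is known from vessel walls and the cornea. Both of its chains were nearly confined to fibroblast-like cells, with 98.9% of the kept Col8a1 UMIs and 98.8% of those of Col8a2. Col8a1 stood at 950, 605 and 1064 CPM and Col8a2 at 221, 105 and 176 CPM in fibroblast-like cells, lowest in G-HD for both. Their promoter windows are shown because the 2 chains share this cell class. They run from 250 bases before to 50 bases after the RefSeq start site on build GRCr8, both on the + strand, 5′ to 3′. Capitals mark matches on either strand to 3 promoter motifs. The TATA box was searched for as the letters TATAAA. The CAAT box was searched for as the letters CCAAT. The GC box was searched for as the letters GGGCGG, and matches could overlap. Col8a1 lies at chr11:56246532-56246831 and Col8a2 at chr5:143870519-143870818.
Col8a1: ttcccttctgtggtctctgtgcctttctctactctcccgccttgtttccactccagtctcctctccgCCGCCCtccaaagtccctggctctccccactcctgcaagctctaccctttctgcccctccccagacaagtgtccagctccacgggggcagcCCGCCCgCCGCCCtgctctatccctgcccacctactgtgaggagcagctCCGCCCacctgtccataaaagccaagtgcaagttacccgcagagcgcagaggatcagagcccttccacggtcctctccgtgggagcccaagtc
Col8a2: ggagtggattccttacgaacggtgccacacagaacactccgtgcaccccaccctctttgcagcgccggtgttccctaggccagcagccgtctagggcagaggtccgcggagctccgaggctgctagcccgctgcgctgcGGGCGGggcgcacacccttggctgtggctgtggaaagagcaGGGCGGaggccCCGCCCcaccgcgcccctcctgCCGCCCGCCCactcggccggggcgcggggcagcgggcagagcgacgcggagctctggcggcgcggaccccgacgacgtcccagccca
The Col8a1 window holds 4 GC box matches and the Col8a2 window 5, counting both strands, and neither holds a TATA or CAAT box match. Of all 33469 windows of this length, 33.1% hold a GC box match, 14.2% a TATA box match and 37.5% a CAAT box match. Of the 27 members, 21 have a window, and 14 of these hold a GC box match, 1 a TATA box match (Col13a1) and 6 a CAAT box match. A match describes letters and is not a binding site. Windows of Col1a1, Col3a1, Col6a2, Col12a1, Col14a1 and Col9a3 were not analysed here.

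Basement membrane collagen of type IV was the most widely shared. Col4a1 (ENSRNOG00000016281), which with Col4a2 forms the common network of all basement membranes, stood at 953, 1857 and 1450 CPM in mural-like cells. Endothelial-like cells, which line the vessels, had 510, 694 and 405 CPM. Schwann-like cells had 366, 348 and 348 CPM, and fibroblast-like cells 242, 429 and 224 CPM. Oligodendrocyte precursor-like cells lay at 45.4, 34.8 and 39.2 CPM. Mural-like, endothelial-like and Schwann-like cells kept this order in all libraries, while fibroblast-like cells exceeded Schwann-like cells in G-HD. Among cells thinned to 1000 UMIs, 38.5%, 72.7% and 72.2% of mural-like cells had a Col4a1 UMI, as did 28.6%, 41.0% and 43.8% of endothelial-like and 32.3%, 26.4% and 25.6% of Schwann-like cells. The few ependymal-like cells (1, 11 and 7), named after the ciliated lining of the central canal, had 198, 121 and 241 CPM. Their leading genes held the astrocyte marker Aqp4 beside the ependymal marker Dynlrb2. Without the cell filter the similar cluster stayed unnamed.

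Col4a4, a chain of the specialised network known from kidney and eye, was highest in mural-like cells at 106, 148 and 330 CPM. It lay at 57.7, 57.6 and 56.2 CPM in endothelial-like cells and at 16.9, 15 and 14.7 CPM in microglia-like cells. Its partner Col4a3 had 6, 7 and 5 UMIs in microglia-like cells, each in a different cell, or 1.72, 1.94 and 0.940 CPM, where 3 UMIs would be 0.858, 0.832 and 0.564 CPM. Col4a5, a chain of smooth muscle and kidney membranes, was a fibroblast gene here, with 90.7% of its kept UMIs and 71.8, 93.6 and 61.9 CPM.

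Type IV genes lie in head-to-head pairs, and the counts within each pair were unequal. In RefSeq on build GRCr8 the start sites of Col4a1 and Col4a2 are 77 bases apart on opposite strands of chromosome 16, and their windows overlap by 176 bases. Over all barcodes they had 4548 and 97 UMIs, and Col4a2 was highest in mural-like cells at 58.8, 43.4 and 47.2 CPM. Col4a3 and Col4a4 start 413 bases apart on chromosome 9, with 33 and 563 UMIs, and Col4a5 and Col4a6 start 1415 bases apart on chromosome X, with 614 and 14 UMIs. The Col4a1 to Col4a2 ratio was 41.4, 53.5 and 43.1 in fibroblast-like cells, 16.2, 42.8 and 30.8 in mural-like cells and 93, 35.5 and 39.7 in Schwann-like cells. Since the protein holds both chains, the low Col4a2 count may be read only with the annotation limit above, whose part was not tested. The Col4a1 window (chr16:84885347-84885646, + strand), which covers both starts, holds 2 CAAT box and 2 GC box matches, counting both strands.
Col4a1: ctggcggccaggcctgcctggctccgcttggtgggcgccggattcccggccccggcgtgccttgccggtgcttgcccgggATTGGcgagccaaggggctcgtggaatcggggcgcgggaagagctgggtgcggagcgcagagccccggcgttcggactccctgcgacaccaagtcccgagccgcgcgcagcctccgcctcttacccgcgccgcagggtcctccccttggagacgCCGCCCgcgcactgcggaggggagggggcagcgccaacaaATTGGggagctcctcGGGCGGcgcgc

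The multiplexins carry the fragments known as restin (Col15a1) and endostatin (Col18a1). Col18a1 (ENSRNOG00000001229) stood at 377, 599 and 318 CPM in mural-like cells, 195, 264 and 259 CPM in Schwann-like cells and 189, 130 and 67.5 CPM in endothelial-like cells. In fibroblast-like cells it stood at 88.8, 223 and 80.1 CPM. Col15a1 (ENSRNOG00000060381) stood at 160, 388 and 193 CPM in fibroblast-like cells, at 53.3, 86.5 and 25.3 CPM in endothelial-like cells and at 15.8, 19.6 and 23.4 CPM in Schwann-like cells. In fibroblast-like cells both genes were highest in G-HD. Fibroblast-like cells held 47.6% of the kept Col15a1 UMIs and 48.4% of those of Col18a1. Their windows are shown because these genes had close patterns over fibroblast-like clusters (Col15a1 chr5:66297296-66297595, Col18a1 chr20:11473395-11473694, both + strand, build GRCr8).
Col15a1: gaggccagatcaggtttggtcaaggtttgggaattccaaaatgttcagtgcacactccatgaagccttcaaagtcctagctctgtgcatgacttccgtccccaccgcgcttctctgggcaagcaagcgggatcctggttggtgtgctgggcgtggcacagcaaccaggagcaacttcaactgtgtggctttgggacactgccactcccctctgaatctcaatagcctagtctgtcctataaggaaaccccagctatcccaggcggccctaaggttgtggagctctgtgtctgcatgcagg
Col18a1: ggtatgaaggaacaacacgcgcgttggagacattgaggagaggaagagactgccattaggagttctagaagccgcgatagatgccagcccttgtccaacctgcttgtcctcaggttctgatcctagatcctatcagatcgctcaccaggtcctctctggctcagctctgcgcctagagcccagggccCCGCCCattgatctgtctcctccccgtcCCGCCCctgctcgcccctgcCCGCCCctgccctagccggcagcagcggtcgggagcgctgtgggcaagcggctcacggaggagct
The Col15a1 window holds none of the 3 motifs, and the Col18a1 window holds 3 GC box matches. No match says only that these letters are not in this window.

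The other reported genes were rare. Col13a1, a transmembrane collagen of cell adhesion sites, stood at 16.0, 24.8 and 8.23 CPM in fibroblast-like cells, with 95.1% of its kept UMIs there. Col7a1, the chain of anchoring fibrils, stood at 22.3, 20.8 and 13.9 CPM in fibroblast-like cells and at 5.94, 7.81 and 7.70 CPM in oligodendrocyte-like cells. Col28a1, known from peripheral nerve, had all of its 35 UMIs in Schwann-like cells, as 4, 18 and 13 UMIs or 7.88, 17.6 and 12.7 CPM.

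Fibroblast-like cells fell into 3 clusters, which are called by their leading genes Igf2 (insulin-like growth factor 2), Smoc2 (a matricellular calcium-binding protein) and Sfrp2 (a secreted Wnt modulator). Those genes chose the clusters and are no result. The Igf2 cluster had 34, 126 and 48 cells, or 25% (18.0 to 33.1), 53.4% (46.8 to 59.9) and 28.6% (21.9 to 36.0) of the class. The Smoc2 cluster had 57, 49 and 81 cells (41.9%, 20.8% and 48.2%) and the Sfrp2 cluster 45, 61 and 39 cells (33.1%, 25.8% and 23.2%). G-HD thus had the largest share of Igf2 cells and the smallest of Smoc2 cells.

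Collagen levels differed between the clusters. Collagen made up 2.75%, 1.66% and 3.24% of the UMIs in the Sfrp2 cluster, 1.69%, 1.65% and 1.41% in the Igf2 cluster and 1.04%, 0.793% and 0.968% in the Smoc2 cluster. Of 20 genes with at least 50 UMIs, 8 were highest in the Igf2 cluster in all libraries, 5 in the Sfrp2 cluster and 2 in the Smoc2 cluster. The other 5 (Col1a1, Col8a1, Col5a3, Col16a1 and Col4a4) changed their highest cluster between libraries. For 9 genes the interval of the highest over the second cluster lay above 1 in all libraries. They were Col3a1 and Col5a1 (Sfrp2), Col4a1, Col15a1, Col18a1, Col4a5 and Col13a1 (Igf2), and Col12a1 and Col8a2 (Smoc2). The cells that were clustered are the ones measured here, so these are descriptions with no test. The share of all genes that meets the same rules was not computed. The counts are thus not read as particular to collagens.

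The Igf2 cluster had the highest levels of both multiplexin genes and of Col4a1 and Col4a5 among the basement membrane genes. Col15a1 stood at 675, 655 and 575 CPM there, against 42.3, 30.7 and 42.4 CPM in the Smoc2 cluster and 29.7, 124 and 99.6 CPM in the Sfrp2 cluster. Its highest cluster exceeded its lowest by 22.7-fold (13.9 to 39.7) in PBS, 21.3-fold in G-HD and 13.6-fold in MPG-HD. Col18a1 stood at 365, 356 and 281 CPM in the Igf2 cluster against 9.51, 3.84 and 5.41 CPM in the Smoc2 cluster, where the G-HD and MPG-HD values rest on few UMIs. Col4a1 stood at 777, 652 and 592 CPM against 49.7, 38.4 and 49.6 CPM. Col4a5 stood at 241, 158 and 184 CPM, against 14.4 to 38.4 CPM in the other clusters. Col13a1 had 80.2, 44.0 and 25.5 CPM in the Igf2 cluster and 0 UMIs in the Smoc2 cluster, so that it was at least 25.3-fold, 7.64-fold and 9.43-fold higher, counting 3 UMIs a library as the floor. Col6a2, the type VI chain, was highest there too but less apart, at 1186, 1051 and 842 CPM against 530 to 878 CPM elsewhere. Endothelial markers summed to 238, 246 and 179 CPM in the Igf2 cluster, and their part in these levels was not tested.

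The Sfrp2 cluster had the most fibrillar collagen. Col3a1 stood at 11598, 7557 and 12328 CPM there, against 6253, 6108 and 5414 CPM in the Igf2 cluster and 3691, 3128 and 3508 CPM in the Smoc2 cluster. Col1a1 stood at 11928, 6267 and 15610 CPM in the Sfrp2 cluster and at 6344, 6592 and 5380 CPM in the Igf2 cluster. In G-HD the 2 clusters were thus near each other. Col11a1 (209, 143 and 281 CPM), Col5a2 (185, 84.2 and 160 CPM), Col14a1 (75.1, 28.5 and 81.7 CPM) and Col5a1 (29.7, 32.4 and 32.7 CPM) were also highest in the Sfrp2 cluster. The Smoc2 cluster had the lowest Col1a1 and Col3a1 levels, while Col11a1 was lowest in the Igf2 cluster, at 36.0, 37.8 and 32.3 CPM. The Smoc2 cluster had the highest Col12a1, at 500, 423 and 595 CPM, and Col8a2, at 330, 254 and 240 CPM. Col8a1 stood at 924, 1216 and 1013 CPM in the Smoc2 cluster, at 1477, 850 and 1906 CPM in the Sfrp2 cluster and at 185, 257 and 282 CPM in the Igf2 cluster.

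**Figure D3:**
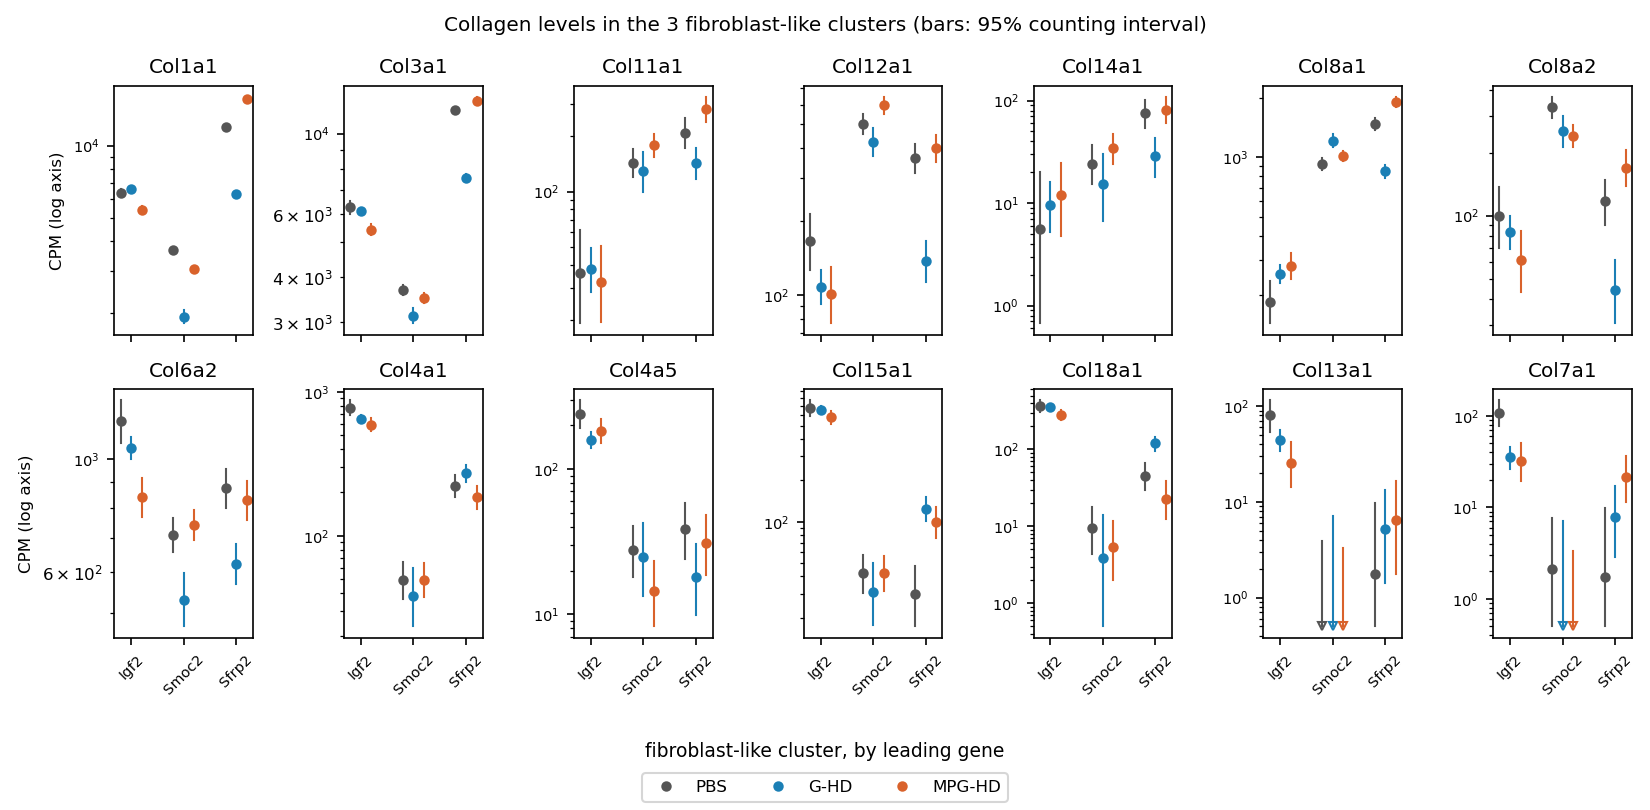
Level in CPM (log axis) of collagen genes in the 3 fibroblast-like clusters, with 1 point per library and 95% counting intervals, which are cut at 0.5 CPM; open triangles at 0.5 CPM mark 0 UMIs. Col15a1, Col18a1 and Col4a1 lie highest in the Igf2 cluster, Col3a1 in the Sfrp2 cluster and Col12a1 and Col8a2 in the Smoc2 cluster.

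Libraries were compared within fibroblast-like cells by the ratio of summed levels, for genes whose sums added up to 50 UMIs or more. A gene counted as higher at a ratio of at least 2 and as lower at 0.5 or less. The 3 comparisons share libraries, so their counts are not independent of each other. In G-HD over PBS, 3 of 19 collagen genes were higher and 3 were lower, where 4.18% of all 6741 genes were higher and 3.06% lower. The higher genes were Col15a1 at 2.42-fold (2.13 to 2.76), Col18a1 at 2.51-fold (2.11 to 3.0) and Col5a3 at 3.02-fold (2.17 to 4.29). The lower genes were Col12a1 at a ratio of 0.447 (0.398 to 0.502), Col8a2 at 0.474 (0.406 to 0.552) and Col14a1 at 0.443 (0.296 to 0.657). The main fibrillar genes lay closer to 1, with Col1a1 at 0.840 and Col3a1 at 0.903. The median log2 ratio was -0.15 over the 19 genes and 0.04 over all genes tested.

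MPG-HD over PBS showed 0 of 18 collagen genes higher and 0 lower, where 1.11% of 6301 genes were higher and 1.79% lower. Col1a1 stood at a ratio of 1.04 and Col3a1 at 0.961, with a median log2 ratio of -0.08 over the members and -0.06 over all genes. MPG-HD over G-HD showed 2 of 19 higher, Col12a1 at 2.37-fold (2.12 to 2.65) and Col14a1 at 2.57-fold (1.78 to 3.76), where 2.11% of 6858 genes were higher. In the same comparison 4 were lower, where 3.34% of genes were: Col15a1 at 0.499 (0.445 to 0.557), Col18a1 at 0.360 (0.303 to 0.425), Col5a3 at 0.30 (0.215 to 0.413) and Col13a1 at 0.332 (0.189 to 0.559). The medians were -0.07 and -0.11.

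Each of the ratios past 2-fold lay nearer to 1 when the 3 clusters were given the same weight. In G-HD over PBS, Col15a1 then stood at a log2 ratio of 0.12, Col18a1 at 0.19, Col5a3 at 0.93, Col12a1 at -0.62, Col8a2 at -0.52 and Col14a1 at -0.97, all within 2-fold. With that weighting 0 of 19 genes were higher (2.15% of all genes) and 1 was lower (1.87%). The 1 gene was Col7a1, the anchoring fibril chain, at a ratio of 0.384 against 0.930 in the plain sums. It was also the 1 of 18 lower in MPG-HD over PBS, at 0.479 (1.79% of all genes), with 0 higher (1.17%). For MPG-HD over G-HD the weighting gave log2 ratios of -0.18 for Col15a1, -0.63 for Col18a1, -0.62 for Col13a1 and 0.71 for Col12a1. There Col14a1 remained higher at 1.26 (1 of 19; 1.14% of all genes) and Col5a3 lower at -1.17 (1 of 19; 1.78%). Ratios within 2-fold could move away from 1. In G-HD over PBS, Col1a1 and Col3a1 had weighted ratios of 0.674 and 0.78, against 0.840 and 0.903 in the plain sums. In MPG-HD over G-HD they had 1.63 and 1.265, against 1.24 and 1.06. In MPG-HD over PBS they had 1.10 and 0.986, against 1.04 and 0.961.

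With every cell given the same weight, the G-HD over PBS ratios of Col12a1 and Col8a2 were 0.504 and 0.553, and the MPG-HD over G-HD ratio of Col15a1 was 0.548, all just within 2-fold. Markers of other cells also differed between the libraries in fibroblast-like cells. The 9 endothelial markers summed to 67.5, 173 and 65.0 CPM (1, 0 and 0 of them at 0), the 11 mural markers to 200, 220 and 356 CPM (1, 0 and 5 at 0) and the 10 macrophage markers to 182, 368 and 308 CPM (3, 3 and 2 at 0). The 10 Schwann markers summed to 422, 394 and 492 CPM, lowest in G-HD, where Col5a3 was highest. Whether any of these cells took part in the ratios was not tested.

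**Figure D4:**
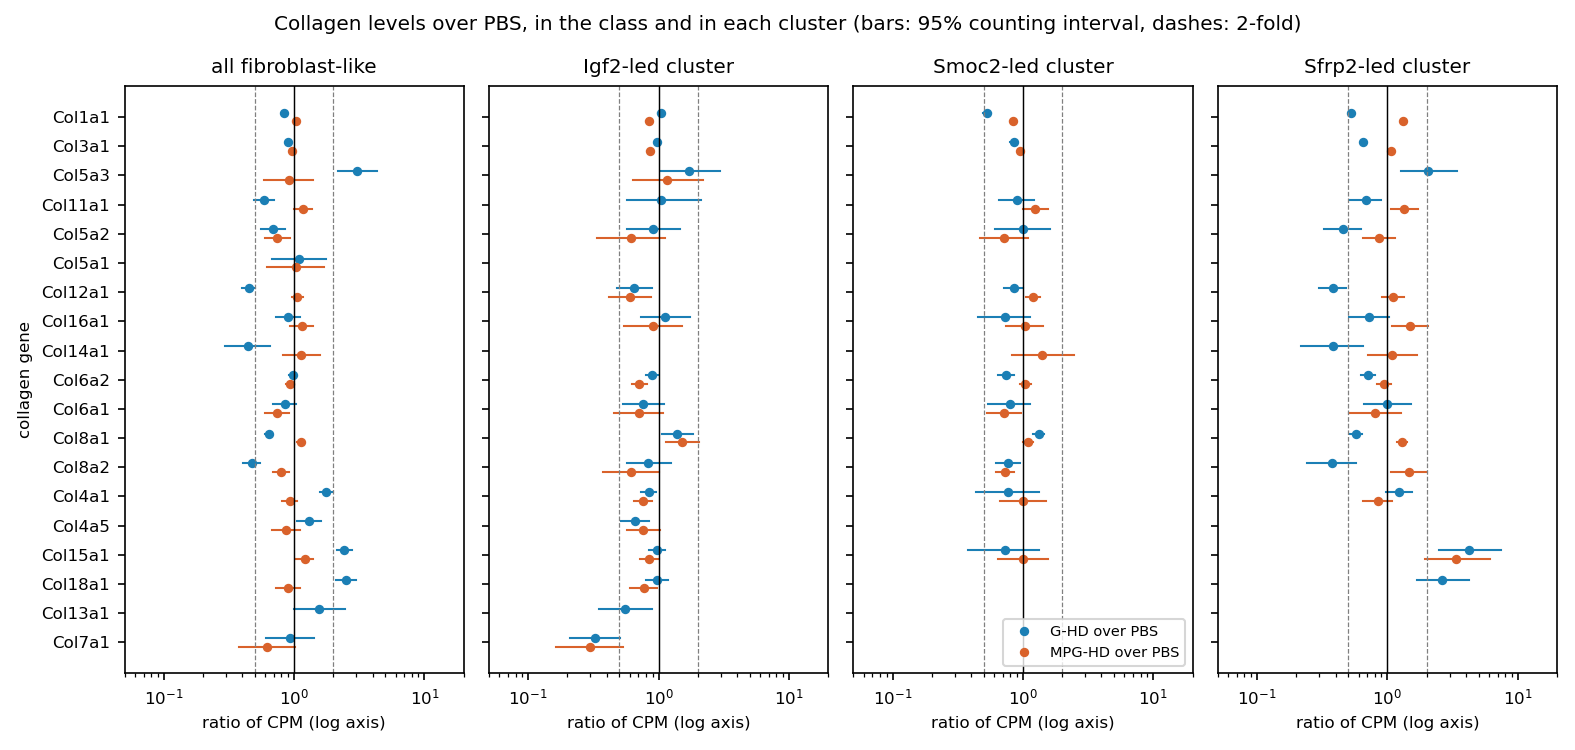
Ratio of collagen levels over PBS on a log axis for G-HD (blue) and MPG-HD (orange), with 95% counting intervals and dashed lines at 2-fold, in all fibroblast-like cells and in each of the 3 clusters. In the whole class Col15a1, Col18a1 and Col5a3 lie past 2-fold for G-HD only, and in the Sfrp2 cluster Col15a1 lies past 2-fold for both.

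Within the Igf2 cluster few collagen genes passed 2-fold. G-HD over PBS had 1 of 17 genes past 2-fold in either direction, where 5.22% of all genes were, MPG-HD over PBS 1 of 15 (4.07%) and MPG-HD over G-HD 0 of 17 (3.16%). The 1 gene was Col7a1, at a ratio of 0.325 (0.210 to 0.507) for G-HD and 0.30 (0.164 to 0.531) for MPG-HD over PBS, although 12 of its 39 PBS UMIs lay in 1 cell. With the stricter cell filter its MPG-HD over PBS log2 ratio was -0.87. Smaller differences ran mostly 1 way. The median log2 ratio of the members was -0.14, -0.39 and -0.23 in these comparisons, against 0.07, 0.02 and -0.07 over all genes tested. All collagen UMIs together stood at 0.837 (0.810 to 0.866) in MPG-HD over PBS, at 0.979 (0.952 to 1.01) in G-HD over PBS and at 0.855 (0.834 to 0.877) in MPG-HD over G-HD. In the Smoc2 cluster no collagen gene passed 2-fold, of 12, 13 and 12 tested in the same comparisons, where 4.1%, 2.82% and 2.49% of all genes did.

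The Sfrp2 cluster had the largest shares of genes past 2-fold of the 3 clusters, among all genes tested as among collagens. G-HD over PBS had 7 of 15 genes past 2-fold (9.79% of all genes), MPG-HD over PBS 1 of 13 (4.8%) and MPG-HD over G-HD 8 of 15 (8.41%). For G-HD over PBS, Col15a1 (4.19-fold, 2.49 to 7.49), Col18a1 (2.63-fold) and Col5a3 (2.04-fold) were higher. Col12a1 (0.380), Col8a2 (0.377), Col14a1 (0.380) and Col5a2 (0.455) were lower. For MPG-HD over PBS the 1 gene was Col15a1 at 3.36-fold (1.94 to 6.13). For MPG-HD over G-HD, Col8a2 (3.86-fold), Col12a1 (2.89-fold), Col14a1 (2.87-fold), Col1a1 (2.49-fold, 2.41 to 2.58), Col8a1 (2.24-fold) and Col16a1 (2.08-fold) were higher, and Col18a1 (0.192) and Col5a3 (0.210) lower. A single MPG-HD cell held 1701 of the 9559 Col1a1 UMIs, and the Col1a1 ratio was 2.28 without the top cell of each library. With every cell given the same weight several of these ratios fell within 2-fold. For G-HD over PBS they were Col18a1 (1.88), Col8a2 (0.507), Col14a1 (0.565) and Col5a2 (0.696), and for MPG-HD over G-HD Col14a1 (1.93) and Col16a1 (1.57). Without cells of the top 5% of doublet scores, the G-HD over PBS log2 ratios of Col5a2 and Col5a3 were -0.99 and 0.99.

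The Sfrp2 cluster was itself mixed, and its make-up differed between libraries. At a finer resolution, chosen after the data were seen, it fell into an Sfrp2-led set (29, 13 and 27 cells) and a Ptgds-led set (16, 48 and 13 cells). Ptgds makes prostaglandin D synthase, an enzyme of the arachnoid and other leptomeningeal cells. The Ptgds-led set was 35.6% (21.9 to 51.2), 78.7% (66.3 to 88.1) and 30.8% (17.0 to 47.6) of the cluster. Col1a1 stood at 15192, 11963 and 20822 CPM in the Sfrp2-led set and at 2818, 4359 and 2892 CPM in the Ptgds-led set. Col3a1 stood at 14156, 16866 and 16044 CPM against 4459, 4438 and 3454 CPM, and Col8a1 at 1968, 2880 and 2641 CPM against 106, 169 and 101 CPM. Within the Sfrp2-led set G-HD was thus not the lowest library for Col3a1 or Col8a1, while it was for Col1a1.

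In the Sfrp2-led set Col15a1 stood at 19, 237 and 106 CPM, and in the Ptgds-led set at 59.5, 86.5 and 84.8 CPM. Only MPG-HD over PBS had at least 20 cells on both sides of the Sfrp2-led set, and there 1 of 13 genes passed 2-fold, where 6.73% of all 2006 genes did. This was Col15a1, 5.56-fold higher (2.60 to 13.6), a ratio that rests on 8 UMIs in PBS and 46 in MPG-HD. The leading genes of the Igf2 cluster summed to 2108, 6071 and 2577 CPM in the Sfrp2 cluster, highest in G-HD. Mural markers summed there to 496, 488 and 1037 CPM (3, 2 and 5 of 11 at 0), endothelial markers to 45.4, 127 and 55.5 CPM (4, 2 and 5 of 9 at 0) and macrophage markers to 363, 681 and 168 CPM (6, 5 and 4 of 10 at 0). Their part in the ratios was not tested.

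Schwann-like cells numbered 96, 202 and 210. G-HD over PBS had 1 of 9 genes past 2-fold, where 2.98% of all genes were, and MPG-HD over PBS and MPG-HD over G-HD 0 of 9 each (1.74% and 1.07%). The 1 gene was Col3a1, at 238, 487 and 324 CPM and a G-HD over PBS ratio of 2.04 (1.67 to 2.51), which was a log2 ratio of 0.93 without the cell filter and 0.88 with every cell given the same weight. Col1a1 stood at 211, 311 and 308 CPM. Fibroblast markers summed to 173, 162 and 130 CPM in Schwann-like cells (3, 0 and 1 of 10 at 0), lowest in MPG-HD. Most of that sum was Mmp2, at 122, 96.9 and 87.7 CPM. Dcn stood at 1.97, 5.88 and 5.85 CPM, lowest in PBS, and Lum at 3.94, 4.90 and 2.92 CPM. These 2 lay near the level of 3 UMIs, which is 5.91, 2.94 and 2.92 CPM. The part of fibroblast RNA in the Col3a1 ratio was not tested. Thinned to 1000 UMIs, 14.0%, 19.4% and 18.8% of Schwann-like cells had a Col1a1 UMI (34.4%, 40.1% and 37.1% unthinned). In lymphocyte-like and neutrophil-like cells it was 0%, 0.727% and 0% (1.45%, 2.87% and 3.80% unthinned). There 3 cells with a UMI would be 4.48% in PBS and 3.85% in MPG-HD. Median depths were 4658, 4498 and 4320 UMIs for Schwann-like cells and 3711, 3110 and 3377 for the latter.

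In endothelial-like cells (37, 41 and 32) only a few genes could be compared: 0 of 4 passed 2-fold in G-HD over PBS (3.23% of all genes), 1 of 2 in MPG-HD over PBS (3.94%) and 0 of 2 in MPG-HD over G-HD (4.18%). The 1 gene was Col18a1 at a ratio of 0.358 (0.217 to 0.568), with 14 of its 85 PBS UMIs in 1 cell, and a log2 ratio of -0.64 with every cell given the same weight. Mural markers summed to 186, 238 and 408 CPM in these cells. Col3a1 stood at 37.7, 57.6 and 33.7 CPM, but 1 cell in each library held 9 of 17, 17 of 24 and 10 of 12 of its UMIs. Fibroblast markers summed to 28.9, 62.5 and 30.9 CPM there (3, 3 and 4 of 10 at 0).

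In oligodendrocyte-like cells (171, 133 and 323) Col5a3 stood at 6.73, 24.5 and 15.4 CPM. It passed 2-fold as 1 of 3 genes in G-HD over PBS (3.63-fold, 2.05 to 6.75; 2.12% of all genes) and as 1 of 5 in MPG-HD over PBS (2.29-fold, 1.34 to 4.13; 1.29%), the latter at a log2 ratio of 0.93 with clusters given the same weight. MPG-HD over G-HD had 0 of 6 (1.4%). Schwann markers summed to 1036, 1048 and 975 CPM in these cells, a similar level in the 3 libraries. In the precursor-like cells (42, 65 and 85) 0 of 3, 0 of 4 and 0 of 3 genes passed 2-fold, where 7.83%, 3.09% and 2.78% of all genes did.

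Macrophage-like cells (320, 691 and 426) had low fibrillar collagen levels that were highest in G-HD. Col1a1 stood at 5.24, 16.8 and 4.95 CPM. G-HD over PBS had 3 of 5 genes past 2-fold (2.76% of all genes), Col1a1 at 3.20-fold, Col3a1 at 3.45-fold and Col6a2 at 3.19-fold. MPG-HD over PBS had 0 of 4 (1.71%). MPG-HD over G-HD had 3 of 5 (1.53%), the same genes at ratios of 0.295, 0.255 and 0.274. A single G-HD cell held 54 of 203 Col1a1 UMIs, 69 of 235 Col3a1 UMIs and 11 of 45 Col6a2 UMIs. Without the top cell of each library the G-HD over PBS ratios were 2.44, 2.62 and 2.89, and the MPG-HD over G-HD ratios 0.367, 0.340 and 0.311. Without the cells in the top 5% of doublet scores, the G-HD over PBS log2 ratios of Col1a1 and Col3a1 were 0.66 and 0.44, under 2-fold, and that of Col6a2 1.33. The MPG-HD over G-HD values were then -0.66, -0.55 and -0.91, all within 2-fold. Without the cell filter, Col1a1 and Col3a1 stood at 0.56 and 0.70 in G-HD over PBS and at -0.72 and -0.88 in MPG-HD over G-HD. Fibroblast markers summed to 215, 214 and 163 CPM in macrophage-like cells (1, 0 and 1 of 10 at 0), and to 254, 254 and 276 CPM in microglia-like cells. The sum does not stand for each marker. In macrophage-like cells Dcn (4.46, 9.25 and 5.68 CPM), Lum (2.52, 3.72 and 3.64 CPM) and Mmp2 (2.91, 5.45 and 7.28 CPM) were lowest in PBS. Values of the other markers are not given here, and the part of fibroblast RNA was not tested. Thinned to 1000 UMIs, 0.946%, 0.878% and 1.41% of them had a Col1a1 UMI (8.44%, 13.3% and 7.28% unthinned), against 0%, 0.727% and 0% in lymphocyte-like and neutrophil-like cells, with overlapping intervals (0.196% to 2.74%, 0.323% to 1.90% and 0.519% to 3.04% against 0% to 5.36%, 0.0882% to 2.60% and 0% to 4.62%). At this depth the Col1a1 share in macrophage-like cells could not be told apart from that of the reference cells.

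In microglia-like cells (287, 306 and 412) 0 of 3, 0 of 3 and 1 of 4 genes passed 2-fold in the same order of comparisons, where 2.16%, 1.18% and 1.36% of all genes did. The 1 gene was Col3a1 at a MPG-HD over G-HD ratio of 0.339. Median log2 ratios over all genes lay within 0.06 of 0 in the Schwann-like, endothelial-like, macrophage-like, microglia-like and oligodendrocyte-like comparisons.

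Col15a1 departed from the fibrillar genes in macrophage-like cells. It had 283, 882 and 510 UMIs there, or 54.9, 72.9 and 74.3 CPM, with a UMI in 92, 294 and 157 cells. Of the 3 macrophage-like clusters, the one led by Mmp12 (a macrophage elastase; 142, 395 and 182 cells) had 92.4, 99.1 and 119 CPM. The one led by Ms4a4e (112, 162 and 140 cells) had 15.5, 10.9 and 22.2 CPM, and the one led by the class II gene RT1-Db1 (66, 134 and 104 cells) 0, 14.9 and 7.91 CPM. Col15a1 was thus highest in the Mmp12 cluster in each library, and Col1a1 in that cluster stood at 4.35, 20.6 and 3.40 CPM.

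Depth was matched by thinning to 1000 UMIs. A Col15a1 UMI was then found in 8.51%, 10.7% and 10.4% of Mmp12 cluster cells (52.1%, 66.1% and 70.3% unthinned) and in 4.10%, 6.59% and 5.16% of all macrophage-like cells (28.8%, 42.5% and 36.9% unthinned). In lymphocyte-like and neutrophil-like cells the share was 0%, 0.727% and 1.28% (0%, 2.51% and 1.27% unthinned). The intervals of all macrophage-like cells and of these reference cells lay apart in G-HD (4.85% to 8.72% against 0.0882% to 2.60%). They overlapped in MPG-HD (3.26% to 7.72% against 0.0325% to 6.94%). In PBS the reference cells had a count of 0, and 3 such cells with a UMI would be 4.48%, above the 4.10% of macrophage-like cells. Median depths were 15502, 16594 and 15305 UMIs for macrophage-like cells. Among macrophage-like cells with a Col15a1 UMI, 15.2%, 29.3% and 16.6% also had a Col1a1 or Col3a1 UMI, against 16.7%, 19.6% and 10.0% of those without one. The cells with Col15a1 were deeper (medians of 21558, 20392 and 21146 UMIs against 11810, 13750 and 12009). Microglia-like cells had 12, 12.2 and 10.2 CPM of Col15a1. The split into 3 clusters was examined after the data were seen.

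**Figure D5:**
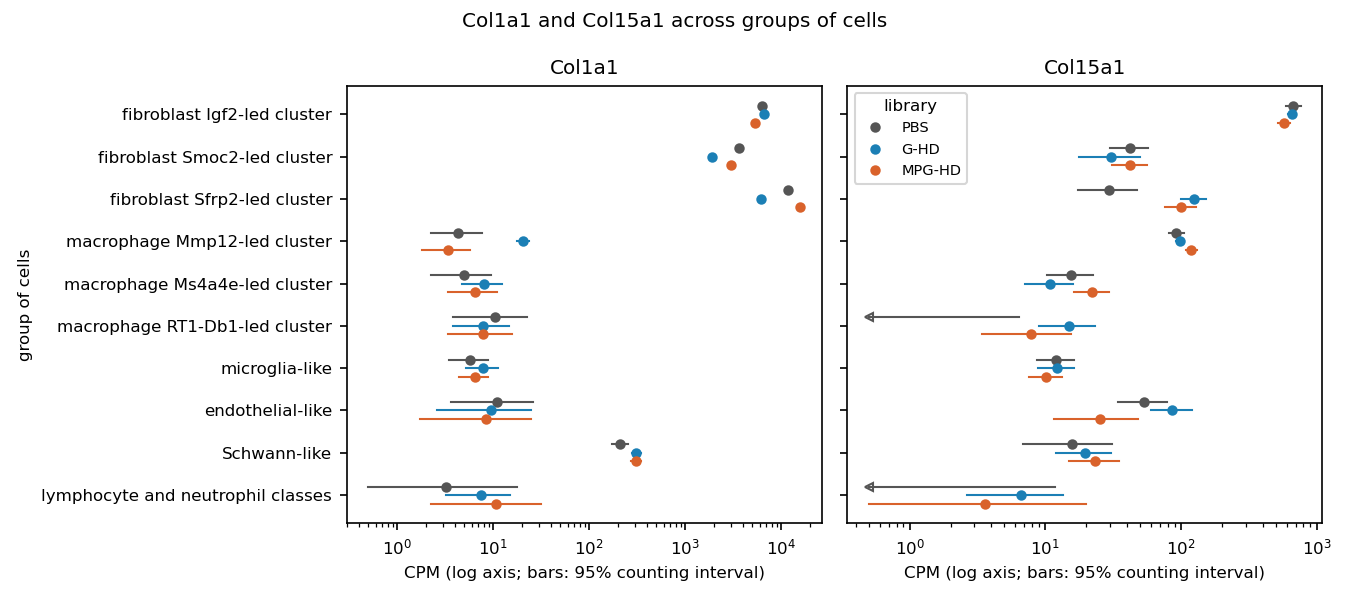
Levels in CPM of Col15a1 and Col1a1 (log axes) by cell group and library with 95% counting intervals; an open left-pointing mark stands for 0 UMIs. The Mmp12 and Ms4a4e clusters of macrophage-like cells have more Col15a1 than Col1a1 in each library, the reverse of fibroblast-like cells. The RT1-Db1 cluster has 0 UMIs of Col15a1 in PBS.

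Chains that assemble into 1 protein were compared where both were measured. In fibroblast-like cells the Col6a1 to Col6a2 ratio was 0.117, 0.101 and 0.0937, and the Col5a1 to Col5a2 ratio 0.170, 0.266 and 0.235. Col1a1 and Col3a1, chains of different proteins that share fibrils, stood in ratios of 1.01, 0.944 and 1.10. Schwann-like cells had 0.884, 0.640 and 0.952 and mural-like cells 0.432 in PBS and 0.246 in G-HD, so Col3a1 exceeded Col1a1 more in mural-like cells, where Col1a1 stood at 188, 130 and 130 CPM and Col3a1 at 435, 529 and 413 CPM. In the Sfrp2 cluster the ratio was 1.03, 0.829 and 1.27. The part of annotated 3′ ends in these ratios was not tested.

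Genes that process collagen were compared between libraries of fibroblast-like cells by the same 2-fold rule. The sums are those of the whole class, whose cluster make-up differed between libraries. They were not reweighted by cluster, and the part of that make-up was not tested. In G-HD over PBS, 4.18% of all genes were higher and 3.06% lower. For MPG-HD over PBS these shares were 1.11% and 1.79%, and for MPG-HD over G-HD 2.11% and 3.34%. Of 14 tested genes for chain modification and folding, 0 passed 2-fold in any comparison, and the list medians were -0.02, 0.02 and 0.04 (log2; G-HD over PBS, MPG-HD over PBS, MPG-HD over G-HD), beside 0.04, -0.06 and -0.11 over all genes. Serpinh1, the collagen chaperone HSP47, stood at 1922, 2193 and 2187 CPM, and P4hb, a subunit of prolyl hydroxylase, at 492, 564 and 529 CPM. Lists for secretion (3 genes tested; medians 0.19, 0.06 and 0.02), propeptide cleavage (3; -0.27, -0.28 and -0.18) and collagen breakdown (7; -0.00, 0.07 and 0.10) also had 0 genes past 2-fold. Pcolce, which speeds propeptide removal, stood at 1429, 1098 and 1521 CPM, the inhibitor Timp1 at 2834, 1676 and 2136 CPM and the protease Ctsk at 618, 675 and 648 CPM.

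Of 3 tested cross-linking genes, Loxl2 was higher in G-HD over PBS at 2.50-fold (1.99 to 3.18; 49.5, 124 and 79.7 CPM) and Lox in MPG-HD over G-HD at 2.26-fold (557, 336 and 758 CPM), while Loxl1 stood at 522, 466 and 571 CPM. By cluster, Loxl2 stood at 127, 182 and 148 CPM (Igf2), 25.4, 21.1 and 31.6 CPM (Smoc2) and 40.1, 82.9 and 101 CPM (Sfrp2). Lox stood at 235, 239 and 148 CPM (Igf2), 627, 530 and 857 CPM (Smoc2) and 644, 387 and 1166 CPM (Sfrp2). The Lox difference between MPG-HD and G-HD thus ran the other way in the Igf2 cluster. The list medians were -0.16, 0.45 and 0.29. Among proteoglycans and fibril partners, Sparc stood at 7479, 6373 and 8109 CPM and Dcn at 3429, 4557 and 3470 CPM. In that list Postn (45.7, 199 and 141 CPM) was 4.34-fold higher in G-HD and 3.09-fold in MPG-HD over PBS. Aspn (419, 161 and 377 CPM) stood at a ratio of 0.383 in G-HD over PBS and 2.35 in MPG-HD over G-HD. It is a leading gene of the Sfrp2 cluster, with 1096, 469 and 1143 CPM there and 169, 146 and 152 CPM in the Smoc2 cluster. The list, with 9, 10 and 9 genes tested, had medians of -0.31, 0.05 and 0.38. Among 5, 6 and 5 tested receptors, 1 passed 2-fold, Ddr1 at 0.476 in MPG-HD over PBS, and the medians were -0.59, -0.37 and -0.19. Postn, Aspn and Ddr1 were named after their values were seen. No list count was read as particular to the list.

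Under the minimum of 20 UMIs lay 15 genes. Of these, 11 had 1 to 15 UMIs over all barcodes, and Col10a1, Col23a1, Col6a5 and Col9a1 had 0. Nothing was read from so few UMIs.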

How the data were processed

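Cells of injured rat spinal cord were measured in 3 libraries, 1 each for PBS, G-HD and MPG-HD. The authors deposited raw UMI counts per gene and barcode, as whole numbers, not normalized, per the file headers. Per the submitters' processing notes, Cell Ranger 3.0.2 was used, with mouse builds named (GRCm38, mm10); the matrix header has software version 3.1.0 and features are named by rat Ensembl IDs. Which rat build and annotation served is not given in the sources used. The printed coordinates are those of RefSeq on GRCr8.

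Cells were kept from 200 detected genes on and up to 20% mitochondrial UMIs, and called doublets (Scrublet through Scanpy 1.11.5, expected rate 6%) were removed. Counts were scaled to 10000 per cell and log-transformed. With collagen genes left out, 2000 variable genes, 30 principal components (NumPy 2.4.6) and a graph of 20 neighbours (scikit-learn 1.9.0; Jaccard weights of at least 1/15) were used for Leiden clustering (resolution 0.8) with leidenalg 0.10.2 and python-igraph 0.11.9. Clusters were named from 20 marker sets (pseudocount 5 CPM; leading genes at 20 CPM) and are written as "like" classes. Levels are UMIs of a gene summed over the cells of a class and scaled to a total of 1000000 (CPM). Intervals (SciPy 1.17.1) are exact at 95%: Poisson for levels, Clopper-Pearson for shares and conditional binomial for ratios. No test was run. A ratio needed at least 50 UMIs in its sums added together, so that 1 side can hold far fewer, and 20 cells in each library. For shares of cells with a UMI, each cell was thinned to 1000 UMIs (3000 as alternative) and shallower cells were left out. A sum of 0 was set to 3 UMIs for a bound. The ratio code was checked on simulated counts.

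Values in every library are given for the 12 members with the most UMIs, the 3 highest in each of the mural-like, endothelial-like, Schwann-like, oligodendrocyte-like, precursor-like and ependymal-like classes, those highest outside fibroblast-like cells and those past 2-fold, and for at most 3 genes of each pathway list. Other members are named by their role. Members and lists were chosen with earlier results of these data known. Alternatives were no cell filter, a stricter one (500 genes, 10%), the top 5% of doublet scores left out, every cell or every cluster given the same weight, resolutions 0.4 and 1.2, and a 1.5-fold limit.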

Additional observations from a re-analysis of the deposited data

Results flagged for a closer look

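In MPG-HD over G-HD the ratios of Col1a1 lay on opposite sides of 1 in 2 groups of cells. Its ratio was 0.295 in macrophage-like cells and 2.49 in the Sfrp2 cluster of fibroblast-like cells. The difference between these ratios was not tested, since each treatment has 1 library. In macrophage-like cells 54 of the 203 G-HD UMIs lay in 1 cell, and in the Sfrp2 cluster 1701 of the 9559 MPG-HD UMIs did. The share of macrophage-like cells with a Col1a1 UMI at matched depth could not be told apart from that in lymphocyte-like and neutrophil-like cells. The Ptgds-led set was 78.7% of the Sfrp2 cluster in G-HD and 30.8% in MPG-HD, and within the Sfrp2-led set Col1a1 stood at 11963 CPM in G-HD and 20822 CPM in MPG-HD. Without the top 5% of doublet scores the macrophage-like log2 ratio was -0.66.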

How the results depend on the processing

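No paired analysis was possible because each treatment has 1 library and no test was run. Of the shares and counts under an alternative, 82 stayed the same and 18 moved. Single-gene values were scored only for ratios past 2-fold and for shares of cells with a Col15a1 or Col1a1 UMI. Of these, 388 stayed the same and 53 moved, with 0 reversed. Ratios within 2-fold were not scored, and some changed sides of 1. With clusters weighing the same, G-HD over PBS went from 1.77 to 0.917 for Col4a1. It went from 1.30 to 0.657 for Col4a5 and from 1.55 to 0.60 for Col13a1. The collagen share of fibroblast-like cells in PBS was 1.71% with the stricter filter, 1.77% with every cell given the same weight and 1.71% without the top doublet scores. In G-HD it was 1.47% without a filter, 1.53% with every cell the same and 1.54% without the top doublet scores, and in MPG-HD 1.83% without the top doublet scores. In G-HD over PBS, 1 gene was lower with every cell the same. With clusters weighing the same, G-HD over PBS had 0 genes higher and 1 lower, MPG-HD over PBS 1 lower, and MPG-HD over G-HD 1 higher and 1 lower. From 1.5-fold on, 5 were higher and 5 lower in G-HD over PBS, 1 lower in MPG-HD over PBS and 5 higher and 6 lower in MPG-HD over G-HD. Without the top doublet scores 1 was lower in MPG-HD over PBS. The share of all genes was not computed at 1.5-fold, with every cell the same or without the top doublet scores. Nothing about collagens in particular is read from those counts. The cause was not tested. Depth limits Col28a1, Col4a3 and Col4a2, with 35, 33 and 96 UMIs in kept cells.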
